A study of Mus musculus with 15 samples.

Results

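The genes described here are 45 genes of the lining of blood vessels and of vessel growth, followed in mouse skin after wounding. They were chosen by name, as blood endothelial and angiogenic genes, and were found in the expression table by gene symbol. All 45 were present among the 18929 genes of the table, and all 45 passed the filter on low counts that left 15369 genes for testing. Polyadenylated RNA of skin was sequenced in 15 samples, with 3 in each of 5 groups. The mice were male balb/c mice, labelled WT, and were 4 to 6 weeks old. In 4 groups a full-thickness piece of dorsal skin, 10 mm or 15 mm across, had been cut out and the wound filled with printed beads of Matrigel, a gel of basement membrane proteins. The acellular groups received beads without cells. The HDB groups received high-density beads, that is, beads loaded with human umbilical cord mesenchymal stem cells (MSCs) at high cell density, set among acellular beads. The fifth group was normal skin without a wound. The study's methods place the sampling after 4 weeks of implantation and the end of the wound experiment at day 21, so the age of the healed tissue is known only within that range. The transplanted cells were human and the table lists mouse genes, so a transcript of the MSCs could enter these values only where it was counted as mouse. Nothing in the labels says what a replicate number marks, and p-values measure the spread between these samples.

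Endothelial cells form the inner wall of every blood vessel and are held together by junction proteins such as VE-cadherin. New vessels sprout when vascular endothelial growth factor (VEGF) binds its receptors on these cells, Notch ligands sort the sprouting cells into tip and stalk, and the angiopoietin and Tie system stabilises the new wall. Skin makes much of its own VEGF in keratinocytes, so ligands and vessel cells are different compartments in this tissue. Of the 45 members, 34 were classed as largely restricted to endothelium, although platelets also carry the products of Vwf and Selp. The other 11 are also made by other skin or blood cells (Vegfa, Vegfb, Angpt1, Nrp1, Efnb2, Podxl, Vcam1, Eng, Cd93, S1pr1 and Tal1). The class of 34 was not checked in these samples. In wounds, described further on, Sox7 of this class was called higher and Ephb4 was among those not called.

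Promoter sequences were read for the 25 members listed in a RefSeq promoter table for GRCm38.p6. The 4 windows shown were picked, with their letters known, as examples with and without a motif. They belong to 3 members that were lower in wounds, a Tie receptor, a TGF-beta co-receptor and a secreted endothelial protein, and to 1 member that was higher, the ephrin ligand Efnb2. Each holds the 250 bases before a start of transcription, 5′ to 3′ on the strand of the gene. Capitals mark the letters AGGAAG, or CTTCCT for the other strand, which hold the GGAA core bound by ETS transcription factors such as Erg, itself a member. The windows lie at chr4:118489850-118490099 (minus strand, Tie1), chr2:32646345-32646594 (plus strand, Eng), chr2:26580833-26581082 (plus strand, Egfl7) for the first of 3 listed starts, and chr8:8661243-8661492 (minus strand, Efnb2).
Tie1: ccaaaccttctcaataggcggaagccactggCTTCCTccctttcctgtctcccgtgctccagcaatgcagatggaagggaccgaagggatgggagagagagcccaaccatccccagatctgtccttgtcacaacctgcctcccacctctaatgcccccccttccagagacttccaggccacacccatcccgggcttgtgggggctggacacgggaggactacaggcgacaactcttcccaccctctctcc
Eng: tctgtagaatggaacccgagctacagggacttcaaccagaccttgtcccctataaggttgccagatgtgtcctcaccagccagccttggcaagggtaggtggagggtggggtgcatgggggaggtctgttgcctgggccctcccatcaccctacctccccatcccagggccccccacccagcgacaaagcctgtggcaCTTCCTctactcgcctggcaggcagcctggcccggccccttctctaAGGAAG
Egfl7: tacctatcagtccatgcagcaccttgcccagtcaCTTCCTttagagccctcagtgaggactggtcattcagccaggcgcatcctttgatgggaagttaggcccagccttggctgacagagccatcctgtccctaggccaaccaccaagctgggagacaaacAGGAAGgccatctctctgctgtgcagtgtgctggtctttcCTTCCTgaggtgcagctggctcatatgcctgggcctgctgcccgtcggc
Efnb2: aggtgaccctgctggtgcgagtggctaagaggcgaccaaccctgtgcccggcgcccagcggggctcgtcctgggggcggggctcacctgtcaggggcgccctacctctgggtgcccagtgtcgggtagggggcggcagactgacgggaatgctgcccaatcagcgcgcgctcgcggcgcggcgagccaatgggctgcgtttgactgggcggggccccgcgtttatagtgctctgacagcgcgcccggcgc
The Tie1 window held 1 such match, the Eng window 2 and the Egfl7 window 3, and the Efnb2 window held none. Only these full letters were counted. The GGAA core alone was not, and it also stands unmarked in the Efnb2 window (gggaat) and the Tie1 window (cggaag). Some members have several listed starts, and the 25 members have 31 windows. At least 1 match stood in 14 of these 31 windows, or 45.2%, beside 29.5% of all 32851 windows of the table. They belong to 13 members (Apln, Egfl7, Emcn, Eng, Erg, Flt1, Gja5, Nrp1, Rasip1, Robo4, Sele, Selp and Tie1). In the comparison of wounds with normal skin described further on, 12 of these 13, all but Apln, were called lower. Of the 12 members with no match, 8 were called lower (Kdr, Tek, Cldn5, Clec14a, Dll4, Gja4, Tal1 and Vegfb). The share of all genes called lower was 16.7%, and the difference of 12 of 13 and 8 of 12 was not tested. The letters ACGTG or CACGT, the core bound by hypoxia-inducible factors, cannot overlap the first motif. They stood in 2 of the 31 windows (1 each of Clec14a and Vegfa), or 6.45%, beside 16.6% of all windows. A match is a run of letters, and binding was not measured.

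Total counts lay between 15840551 and 18404188 per sample, so depth differed little. Levels are given in CPM, that is, counts scaled to a common library size after TMM normalization, which aligns the bulk of the genes of each library, and in replicate order 1 to 3. Keratinocyte markers were abundant in every sample, with a summed level of 7156 to 17990.0 CPM over 6 genes, and the 8 core endothelial genes used as a check of the label (Pecam1, Cdh5, Tie1, Esam, Egfl7, Robo4, Erg and Cldn5) were detected in every sample. Their summed level was 573 to 610.1 CPM in normal skin and 112 to 450.3 CPM in the 12 wound samples. One library stood apart among the wounds: HDB 15 mm replicate 2 was the highest of the 12 for 37 of the 45 members, while acellular 10 mm replicates 1 and 3 were the lowest for 15 and 16 and acellular 15 mm replicate 1 for 8. A log2 fold change is given with its standard error (SE) after ±, and adjusted p-values are those of the edgeR test with Benjamini-Hochberg adjustment.

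The first question was how far the vessel genes of healed skin were from those of unwounded skin. Across the 4 wound groups, 37 of the 45 members were significantly lower than in normal skin and 2, Sox7 and Efnb2, were significantly higher (edgeR quasi-likelihood test, Benjamini-Hochberg adjusted p under 0.05 over all genes). Of all genes tested, 16.7% were called lower and 14.2% higher. The median log2 fold change of the members was -1.23, beside 0.045 for all genes, and 43 of 45 members had a negative value. The 34 members classed as restricted had 29 lower calls and a median of -1.28, and the 11 broader members had 8 and a median of -1.09. In 27 members every normal sample lay above every one of the 12 wound samples, which was so for 11.1% of all genes. In 0 members did every normal sample lie below every wound sample, which was so for 9.86% of all genes. The same 39 genes were called by DESeq2, which called 36% of all genes in either direction, while 33 were called without normal replicate 1 and 29 without normal replicate 2 or 3. In bulk tissue, fewer endothelial cells and less RNA of these genes per cell cannot be told apart.

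**Figure D1:**
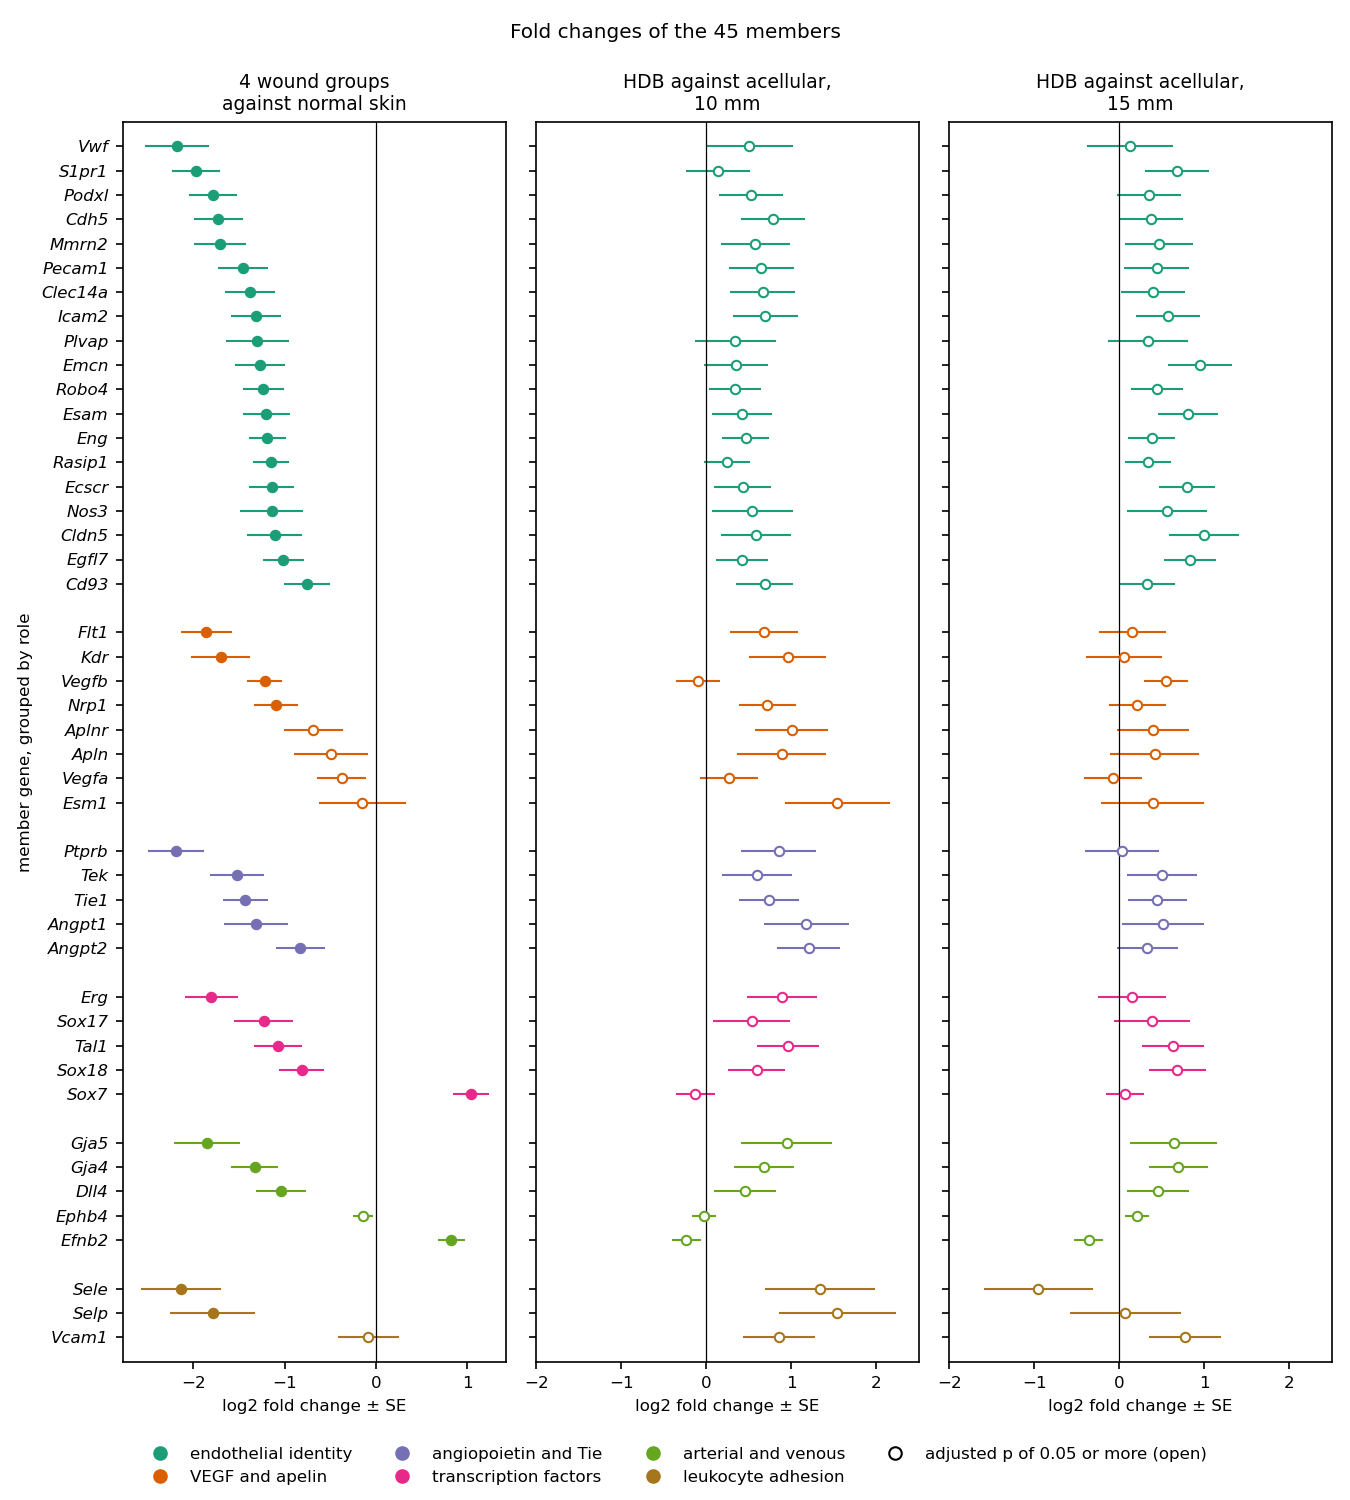
Log2 fold change with its standard error (horizontal axis) of each of the 45 members, ordered within 6 roles, for the 4 wound groups against normal skin (left) and for HDB against acellular beads at 10 mm (middle) and 15 mm (right); filled points passed the adjusted threshold of 0.05. On the left 37 filled points lie below 0 and 2 above, and in the other panels no point is filled while most lie above 0.

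The 19 genes of endothelial identity were lower in wounds without exception, with all 19 called and log2 fold changes from -0.76 (Cd93) to -2.18 (Vwf). Pecam1 (CD31; chr11:106654213-106715281), an adhesion molecule of endothelial junctions that is widely used to mark vessels, was among the most abundant members. In normal skin Pecam1 stood at 181, 189 and 198 CPM, against 40.2, 70.8 and 30.2 in acellular 10 mm, 84.9, 49.3 and 87.0 in HDB 10 mm, 51.1, 55.8 and 101 in acellular 15 mm and 85.7, 139.8 and 57.3 CPM in HDB 15 mm skin. The 3 normal samples were above all 12 wounds, and the wound groups overlapped each other. Its log2 fold change in wounds was -1.45 ± 0.28 (SE, adjusted p = 0.0041). Vwf (chr6:125552948-125686679) encodes von Willebrand factor, the clotting glycoprotein stored in endothelial cells and platelets. Vwf measured 9.88, 20.8 and 5.73 CPM in acellular 10 mm, 21.96, 9.95 and 19.9 in HDB 10 mm, 10.9, 20.2 and 31.7 in acellular 15 mm, 20.6, 34.3 and 13.7 in HDB 15 mm and 62.0, 80.1 and 99.9 CPM in normal skin. Again the normal samples stood above every wound sample, by more than the spread within any wound group. In wounds the log2 fold change of Vwf was -2.18 ± 0.35 (SE, adjusted p = 0.00202). Egfl7 (chr2:26581083-26592682), a secreted protein that guides vessel tube formation and whose exons overlap Agpat2 on the other strand, changed less. In normal skin Egfl7 stood at 49.7, 53.6 and 59.3 CPM, against 15.9, 30.9 and 12.7 in acellular 10 mm, 26.5, 20.9 and 32.2 in HDB 10 mm, 16.4, 25.8 and 28.5 in acellular 15 mm and 38.3, 50.4 and 37.3 CPM in HDB 15 mm skin. Among the wounds HDB 15 mm replicate 2 alone fell inside the normal range. Its log2 fold change in wounds was -1.01 ± 0.22 (SE, adjusted p = 0.00729). The other called identity genes included Cdh5, which encodes VE-cadherin (-1.72 ± 0.27), the sphingosine-1-phosphate receptor gene S1pr1 (-1.97 ± 0.26), the lumenal sialomucin gene Podxl (-1.78 ± 0.27) and the nitric oxide synthase gene Nos3 (-1.14 ± 0.35).

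Platelets also carry von Willebrand factor and P-selectin, and the platelet list had 2 of its 4 tested markers lower in wounds, Pf4 and Ppbp. Its summed level was 21.2 to 36.2 CPM in normal skin and 10.5 to 21.9 CPM in wounds. Its part in the values of Vwf and Selp was not tested.

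In the VEGF and apelin group the VEGF receptors were lower, and the ligand Vegfa and the apelin genes were not called. Vegfa (chr17:46016993-46032377), the main ligand of vessel growth, was the most abundant of the 8 in CPM. Vegfa measured 55.4, 119.8 and 89.1 CPM in acellular 10 mm, 115, 60.5 and 143 in HDB 10 mm, 69.4, 120.0 and 116 in acellular 15 mm, 86.3, 128 and 75.9 in HDB 15 mm and 127, 144 and 109.5 CPM in normal skin. The ranges of all 5 groups overlapped. Its log2 fold change was -0.38 ± 0.27 (SE, adjusted p = 0.294). Flt1 (chr5:147561604-147726438) encodes VEGF receptor 1, which binds VEGF tightly and limits its supply. In normal skin Flt1 stood at 90.5, 80.7 and 78.7 CPM, against 13.0, 21.5 and 12.6 in acellular 10 mm, 32.2, 12.5 and 30.5 in HDB 10 mm, 17.8, 29.5 and 28.8 in acellular 15 mm and 23.0, 44.6 and 17.1 CPM in HDB 15 mm skin. No wound sample came near the normal range. For Flt1 the log2 fold change was -1.85 ± 0.28 (SE, adjusted p = 0.00162). The signalling receptor gene Kdr (-1.70 ± 0.32), the co-receptor gene Nrp1 (-1.09 ± 0.25) and the ligand gene Vegfb (-1.22 ± 0.19) were also called lower. Among the apelin genes, the values of the receptor gene Aplnr (-0.68 ± 0.32) and of its peptide ligand gene Apln (-0.49 ± 0.40) did not pass. Esm1, a proteoglycan gene of sprouting tip cells, had the lowest mean level of all members, with 0.685 to 4.30 CPM over all samples, and its value of -0.15 ± 0.48 (SE) turned positive with scaling by library totals and without normal replicate 3.

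All 5 genes of the angiopoietin and Tie system were called lower in wounds, with a median of -1.43. The largest difference was that of Ptprb (chr10:116275502-116389538), a phosphatase that restrains the Tie2 receptor and supports adhesion through VE-cadherin. Ptprb measured 19.5, 27.2 and 18.1 CPM in acellular 10 mm, 55.6, 16.2 and 45.3 in HDB 10 mm, 35.1, 41.1 and 57.9 in acellular 15 mm, 37.8, 76.0 and 23.4 in HDB 15 mm and 161, 160.0 and 173 CPM in normal skin. Every normal sample stood above every wound sample, of which HDB 15 mm replicate 2 was the highest. The log2 fold change was -2.18 ± 0.31 (SE, adjusted p = 0.0013). Angpt2 (chr8:18690263-18741562) encodes the ligand that loosens vessel walls before sprouting. In normal skin Angpt2 stood at 13.4, 13.3 and 11.8 CPM, against 2.91, 6.12 and 2.92 in acellular 10 mm, 7.10, 10.2 and 10.3 in HDB 10 mm, 4.36, 7.12 and 11.7 in acellular 15 mm and 7.83, 12.2 and 9.15 CPM in HDB 15 mm skin. Only HDB 15 mm replicate 2 and not the other 11 wound samples reached the normal range. Its log2 fold change was -0.83 ± 0.27 (SE, adjusted p = 0.0368), and the call was lost in 8 of the 15 fits that left out 1 sample and with scaling by library totals. The receptor genes Tek, which encodes Tie2 (-1.52 ± 0.30), and Tie1 (-1.43 ± 0.25) and the stabilising ligand gene Angpt1 (-1.31 ± 0.35) lay between these 2.

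Of the 5 transcription factors, 4 were called lower and Sox7 was called higher. Erg (chr16:95359169-95586600), an ETS factor that keeps endothelial genes active, gave a log2 fold change of -1.80 ± 0.29 (SE, adjusted p = 0.00194). Erg measured 3.60, 6.23 and 4.09 CPM in acellular 10 mm, 9.94, 5.17 and 10.7 in HDB 10 mm, 5.72, 7.41 and 11.4 in acellular 15 mm, 7.37, 14.9 and 4.91 in HDB 15 mm and 26.2, 22.9 and 28.0 CPM in normal skin. None of the wound samples overlapped the normal samples. Sox7 (chr14:63943706-63950732) belongs to the SoxF family of endothelial regulators together with Sox17 and Sox18. In normal skin Sox7 stood at 13.1, 16.6 and 16.3 CPM, against 44.3, 41.7 and 35.4 in acellular 10 mm, 29.1, 42.7 and 39.3 in HDB 10 mm, 16.3, 26.1 and 32.8 in acellular 15 mm and 29.5, 23.0 and 26.1 CPM in HDB 15 mm skin. All wound samples but acellular 15 mm replicate 1 were above the normal range. The log2 fold change of Sox7 was 1.04 ± 0.19 (SE, adjusted p = 0.00396), the opposite direction to Sox17 (-1.23 ± 0.33) and Sox18 (-0.81 ± 0.25). Tal1 (chr4:115056426-115071755), a factor of blood and endothelial precursors that red cell precursors also make, was low in all groups. Tal1 measured 1.94, 2.81 and 1.87 CPM in acellular 10 mm, 4.32, 3.66 and 4.94 in HDB 10 mm, 1.59, 3.56 and 5.31 in acellular 15 mm, 4.68, 5.94 and 5.59 in HDB 15 mm and 5.76, 8.50 and 8.85 CPM in normal skin. HDB 15 mm replicate 2 alone among the wounds entered the normal range. Its log2 fold change in wounds was -1.07 ± 0.27 (SE, adjusted p = 0.0117). The erythrocyte list had 3 of its 4 tested markers lower in wounds, with summed levels of 326 to 1058 CPM in normal skin and 49.3 to 1047 CPM in wounds, and Hbb-bs was listed at 0 in every group but HDB 10 mm. Its part in the Tal1 value was not tested.

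Among the arterial and venous genes, the connexin genes Gja4 (-1.33 ± 0.25) and Gja5 and the Notch ligand gene Dll4 (-1.04 ± 0.27) were called lower. Gja5 (chr3:97032402-97053634), the connexin 40 gene of arterial endothelium, overlaps Gpr89 on the other strand. In normal skin Gja5 stood at 16.9, 10.1 and 12.1 CPM, against 1.66, 3.43 and 0.643 in acellular 10 mm, 4.26, 2.85 and 3.94 in HDB 10 mm, 2.66, 5.08 and 4.09 in acellular 15 mm and 5.20, 10.0 and 3.22 CPM in HDB 15 mm skin. HDB 15 mm replicate 2 was the wound sample nearest to the normal range. The log2 fold change was -1.85 ± 0.36 (SE, adjusted p = 0.00474). Efnb2 (chr8:8617235-8661242) encodes ephrin-B2, an arterial ligand that keratinocytes and hair follicles also make, and was the most abundant member in CPM in wounds. Efnb2 measured 355, 269 and 320.2 CPM in acellular 10 mm, 253, 309 and 240.1 in HDB 10 mm, 287, 227 and 248 in acellular 15 mm, 228, 160.5 and 205 in HDB 15 mm and 169.5, 133 and 130.3 CPM in normal skin. All wound samples but HDB 15 mm replicate 2 were above the 3 normal samples. Its log2 fold change was 0.82 ± 0.14 (SE, adjusted p = 0.00307). Ephb4, the venous receptor gene that binds ephrin-B2, had a value of -0.14 ± 0.11 (SE), which turned positive with scaling by library totals.

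Of the 3 leukocyte adhesion genes, E-selectin and P-selectin were lower and Vcam1 was not called. Sele (chr1:164039614-164058487) encodes E-selectin, which appears on activated vessels. In normal skin Sele stood at 5.83, 11.4 and 14.6 CPM, against 0.856, 2.19 and 1.64 in acellular 10 mm, 6.39, 1.67 and 3.83 in HDB 10 mm, 1.53, 2.04 and 6.16 in acellular 15 mm and 1.89, 2.36 and 0.791 CPM in HDB 15 mm skin. Normal replicate 1 lay within the wound range and the other normal samples above it. The log2 fold change was -2.14 ± 0.44 (SE, adjusted p = 0.0054), and that of Selp was -1.79 ± 0.46 (SE, adjusted p = 0.0142). Vcam1 (chr3:116110020-116129688), the vascular cell adhesion molecule gene, is also expressed by fibroblasts and macrophages and overlaps Gm43109 on the other strand. Vcam1 measured 6.11, 11.8 and 7.60 CPM in acellular 10 mm, 12.5, 13.1 and 20.5 in HDB 10 mm, 3.40, 8.17 and 14.8 in acellular 15 mm, 11.2, 18.4 and 15.4 in HDB 15 mm and 12.7, 12.7 and 11.0 CPM in normal skin. Of the acellular samples 4 of 6 lay below the normal range, and of the HDB samples 4 of 6 lay above it. Its wound value was -0.083 ± 0.33 (SE), which was positive with scaling by library totals and without acellular 15 mm replicate 1.

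**Figure D2:**
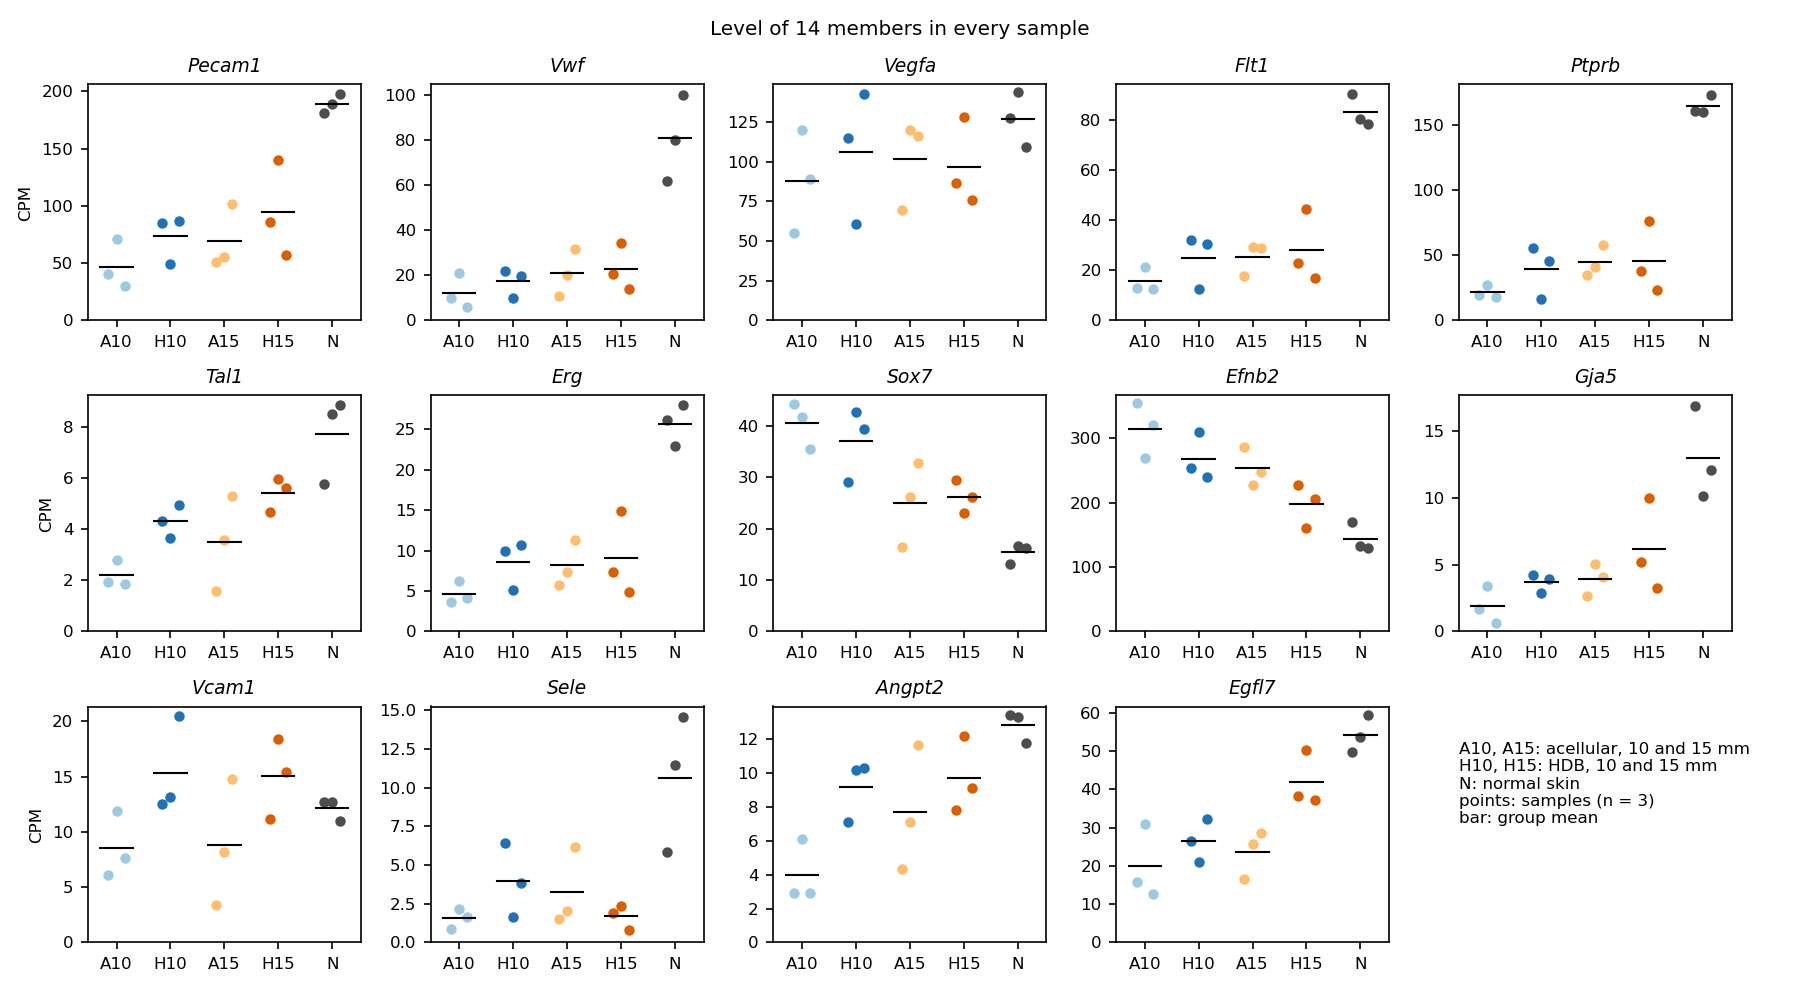
Level in CPM (vertical axis, from 0) of 14 members in each of the 15 samples, as points by group with the group mean as a bar. For Pecam1, Vwf, Flt1, Ptprb and Erg the 3 normal samples lie above all 12 wounds, and for Sox7 and Efnb2 the group means are lowest in normal skin.

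Per kilobase of transcript, the highest members in normal skin were Pecam1 with 55.0, Plvap with 53.7 and Vegfb with 50.5 CPM per kb. In wounds the highest were Efnb2 with 53.9, Vegfa with 28.4 and Plvap, the gene of the diaphragm protein of leaky capillaries, with 22.8 CPM per kb. Pecam1 had rank 5 in wounds with 20.7 and Efnb2 rank 9 in normal skin with 30.1 CPM per kb.

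The members did not keep the same proportions to each other. Relative to the mean log2 CPM of the 8 core endothelial genes, the difference of wounds and normal skin was -0.85 for Ptprb, -0.85 for Vwf and -0.79 for Sele. The same difference was 2.45 for Sox7, 2.26 for Efnb2, 1.31 for Esm1, 1.28 for Ephb4, 1.26 for Vcam1 and 1.01 for Vegfa. A core gene was set against the mean of the other core genes, and for Pecam1 the difference was -0.11. The relative level of Ptprb was 1.35 to 1.44 in the 3 normal samples and -0.18 to 1.23 in wounds, with no overlap. That of Sox7 was -2.26 to -1.83 in normal skin and -1.03 to 1.67 in wounds, again with no overlap. For Vwf (-1.10 to 0.046 in wounds and -0.026 to 0.64 in normal skin), Sele and Esm1 the ranges overlapped. These differences on the log2 scale are a description, with no test.

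**Figure D3:**
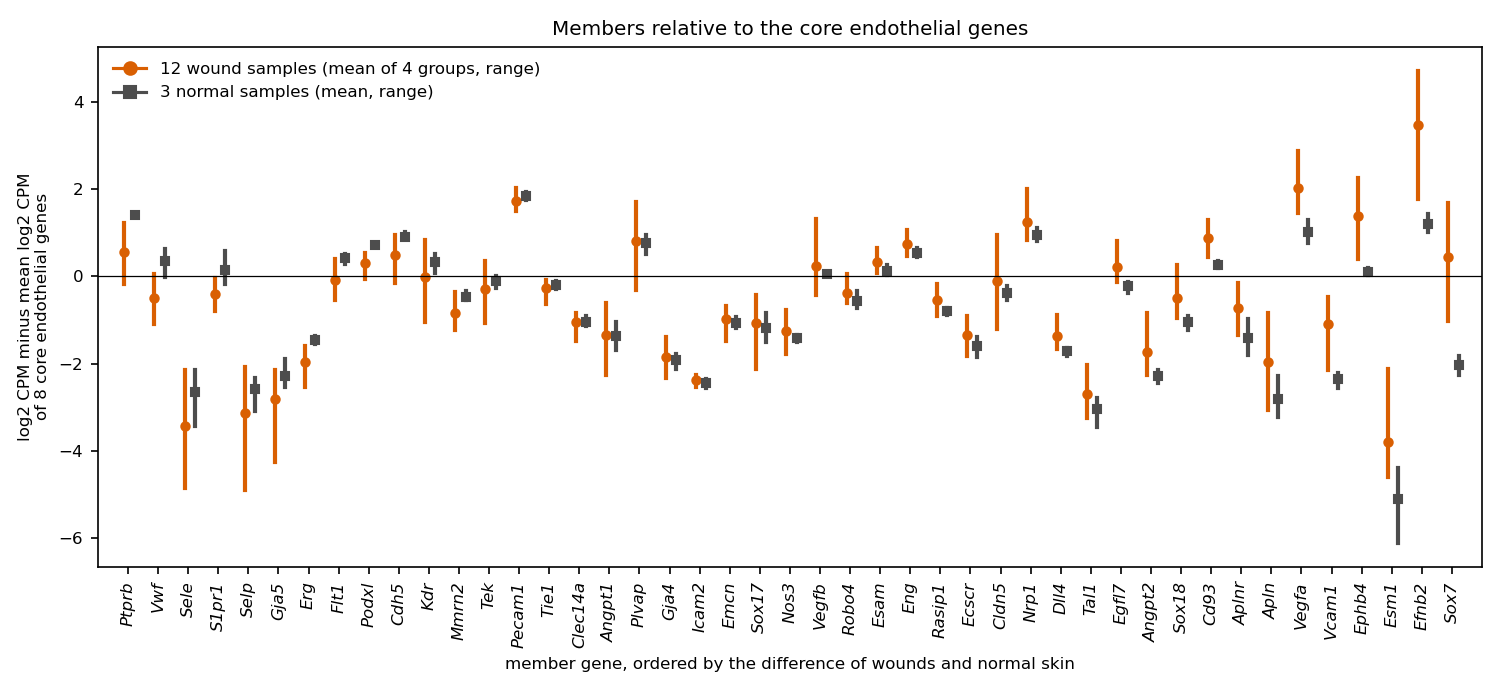
Log2 CPM of each member minus the mean log2 CPM of the 8 core endothelial genes (vertical axis), in the 12 wound samples (circles, mean of the 4 group means with the range of the samples) and the 3 normal samples (squares, mean and range). A core gene is set against the mean of the other core genes. The circle lies furthest below the square for Ptprb, by 0.85, and furthest above it for Sox7, by 2.45.

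Other vascular genes were taken from 6 lists with 63 genes, of which 62 were tested. Of 18 further endothelial identity genes, 15 were called lower and 0 higher in wounds, and of 11 tested transcription factors 10 were lower. The 3 with the smallest p were Gpihbp1, which holds lipoprotein lipase on capillaries (-1.91 ± 0.25), the hypoxia-inducible factor gene Epas1 (-1.39 ± 0.19) and the adhesion receptor gene Adgrf5 (-1.97 ± 0.30). The BMP and ALK1 list had 2 of 8 lower and the VEGF list 2 of 7. The Notch list went the other way, with 4 of 8 called higher and 0 lower, among them the receptor gene Notch1 (0.86 ± 0.20), which skin epithelium also makes. The hypoxia list was mixed, with 4 of 10 lower and 2 higher, the prolyl hydroxylase gene Egln3 (1.28 ± 0.28) and the glucose transporter gene Slc2a1 (1.02 ± 0.24).

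Markers of other cells moved in the same comparison. Lower calls were made for 5 of 6 macrophage markers, 4 of 5 adipocyte markers, 4 of 11 markers of pericytes and smooth muscle, 2 of 6 lymphatic, 1 of 6 fibroblast and 1 of 6 skeletal muscle markers, and higher calls for 4 of 6 keratinocyte markers (with 1 lower) and 2 of 6 tested hair shaft markers. The summed level of the pericyte and smooth muscle list was 3112 to 4265 CPM in normal skin and 777 to 2316 CPM in wounds, without overlap, as for the core endothelial genes. The skeletal muscle list also did not overlap, with 39020.0 to 48429 CPM in normal skin and 476 to 27497 CPM in wounds. Its median log2 fold change was -1.98, and beside its 1 call by edgeR, 5 of its 6 markers had an unadjusted p under 0.05 and DESeq2 called 4. The macrophage list spanned 253 to 679.6 CPM in normal skin and 62.1 to 342 CPM in wounds, and the adipocyte list 681 to 2094 and 87.9 to 1552 CPM, both with overlap. Keratinocyte markers summed to 7156 to 8345 CPM in normal skin and 7923 to 17990.0 CPM in wounds. The hair shaft list was 0.536 to 0.703 CPM in normal skin, with Krt86 and Dsg4 at 0, and 1.18 to 7056 CPM in wounds. The part of these cell types in the members' values was not tested.

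**Figure D4:**
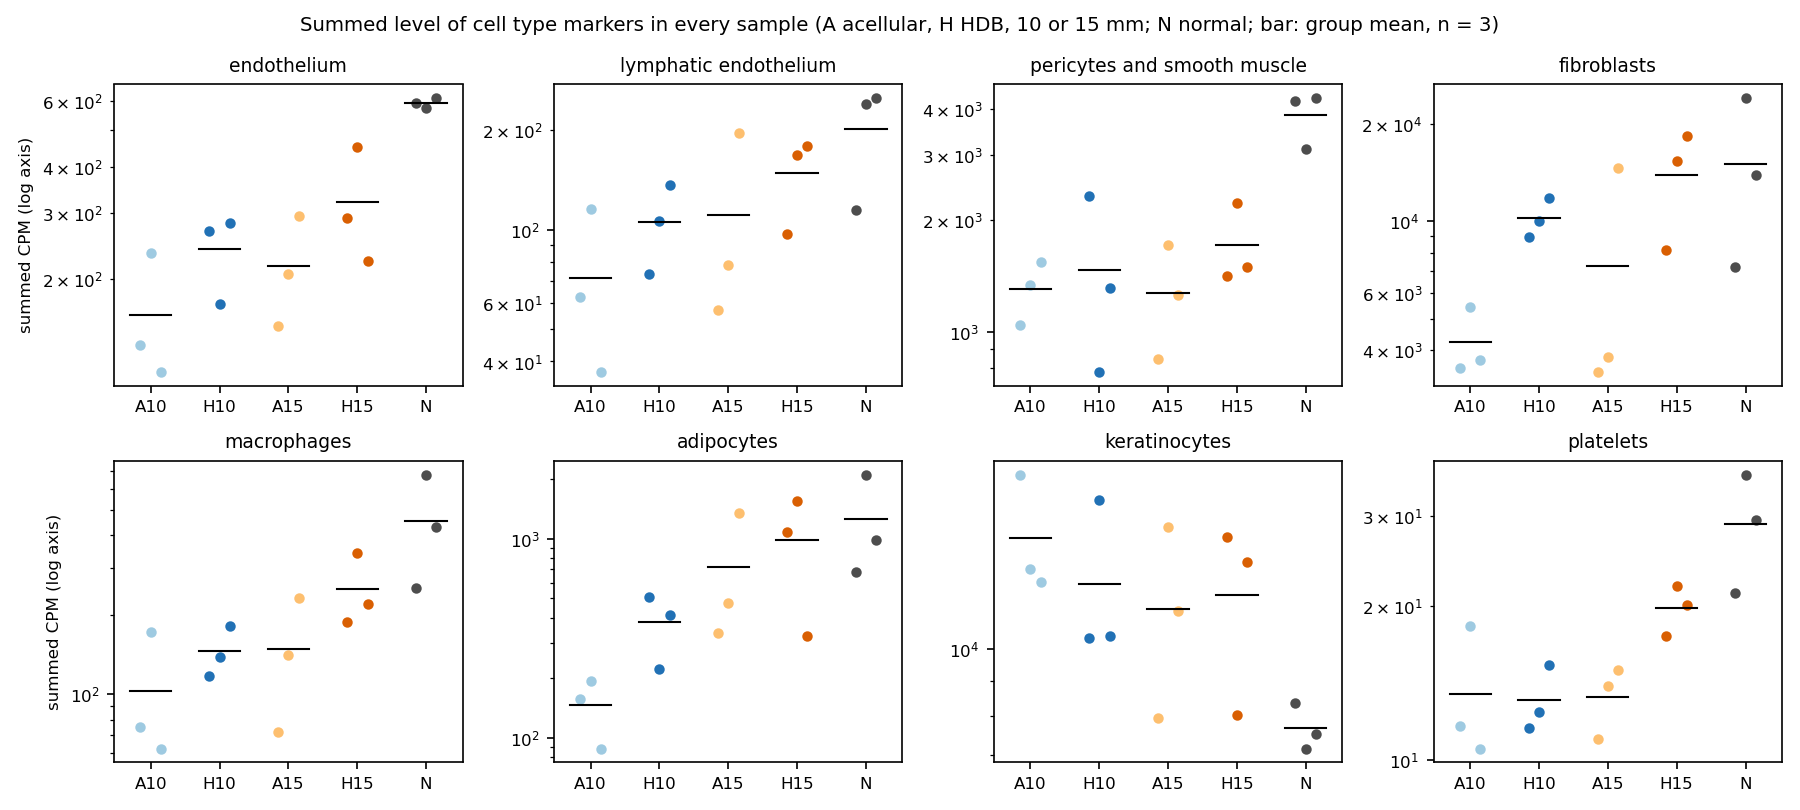
Summed CPM (vertical axis, logarithmic) of the markers of 8 cell types in each sample, by group, with the group mean as a bar. The endothelial and the pericyte and smooth muscle sums of normal skin lie above those of every wound sample, and the mean keratinocyte sum is lowest in normal skin.

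Taken group by group, the distance to normal skin differed in the number of calls. The 4 comparisons share the same 3 normal samples and are set side by side. In acellular 10 mm skin 38 members were lower and 2 higher, with a median log2 fold change of -1.71, beside 10.6% and 9.77% of all genes. In acellular 15 mm skin 29 were lower and 2 higher, with a median of -1.31, beside 12.6% and 17.6%. In HDB 10 mm skin 19 were lower and 2 higher, with a median of -1.18, beside 6.23% and 6.10%. In HDB 15 mm skin 4 were lower and 0 higher, with a median of -0.75, beside 2.51% and 2.67%. At an unadjusted p under 0.05 the HDB 15 mm group had 22 members in either direction, beside 26.9% of all genes, and DESeq2 called 17, beside 14.9%. The 4 called members were Ptprb (-1.85 ± 0.45, adjusted p = 0.0383), Sele (-2.66 ± 0.66, adjusted p = 0.0404), S1pr1 (-1.49 ± 0.38, adjusted p = 0.0435) and Flt1 (-1.56 ± 0.40, adjusted p = 0.0448). These counts rest on single libraries. The acellular 10 mm total of 40 fell to 21 without acellular 10 mm replicate 1, and the acellular 15 mm total of 31 to 19 without normal replicate 3. The HDB 10 mm total of 21 fell to 0 when HDB 10 mm replicate 2 or normal replicate 3 was left out, to 3 without HDB 10 mm replicate 3, and to 5 and 6 without normal replicates 1 and 2. The HDB 15 mm total of 4 rose to 15 without HDB 15 mm replicate 2, to 12 without acellular 15 mm replicate 1, to 9 without acellular 15 mm replicate 3 and to 7 without HDB 10 mm replicate 2. It fell to 0 or 1 without any acellular 10 mm or normal sample, or when HDB 10 mm replicate 3 or HDB 15 mm replicates 1 or 3 were left out. With only the groups compared in the fit, the totals were 20 for acellular 15 mm, 35 for HDB 10 mm and 14 for HDB 15 mm, so that HDB 10 mm had more calls than acellular 15 mm skin. The shares of all genes called in these fits are not given here, so the changed totals are not read as particular to the members. At an unadjusted p under 0.05, HDB 15 mm skin had 12 members without HDB 15 mm replicate 3, beside 16% of all genes. It had 30 without HDB 15 mm replicate 2, beside 29.2%. A call in 1 group and none in another is no test of their difference, which the next comparisons give.

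The second question was whether MSCs in the beads changed the vessel genes. Most members had higher values in HDB than in acellular skin and none passed the adjusted threshold. The summed level of the 8 core endothelial genes, as a percentage of the normal mean, was 22.5, 39.5 and 19.0 in acellular 10 mm skin and 45.3, 29.0 and 47.8 in HDB 10 mm skin. At 15 mm it was 25.3, 34.8 and 49.8 in acellular and 49.2, 76.1 and 37.8 in HDB skin. The group means were 27.0 ± 11.0, 40.7 ± 10.2, 36.6 ± 12.3 and 54.4 ± 19.7% (SD, n = 3) in that order, and acellular and HDB samples overlapped at both sizes.

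At 10 mm, 41 of 45 members had a higher value in HDB skin, with a median log2 fold change of 0.60, beside 48.2% of all genes with a positive value and a median of -0.0083. The edgeR test called 0 members and 0% of all genes. An unadjusted p under 0.05 was found in 6 members, beside 3.53% of all genes, and DESeq2 called 0 members, beside 0.0799%. Leaving out single samples moved the count at an unadjusted p under 0.05 from 1, without acellular 10 mm replicate 1 (1.45% of all genes) or HDB 10 mm replicate 3 (1.39%), to 26, without acellular 10 mm replicate 2 (5.37%). It was 14 by DESeq2, beside 4.32%. With acellular 10 mm replicates 1, 2 and 3 left out in turn, the median was 0.50, 0.97 and 0.48. It was 0.51, with 39 members higher, without HDB 10 mm replicate 3. It was 0.81 without HDB 10 mm replicate 2, with 18 members and 6.16% of all genes at an unadjusted p under 0.05. In 6 members (Tal1, Aplnr, Esm1, Angpt1, Angpt2 and Vcam1) every HDB sample lay above every acellular sample, which was so for 4.53% of all genes, and in 0 members below, beside 6.47%. Angpt2 had the smallest unadjusted p, 0.00649, with a log2 fold change of 1.21 ± 0.37 (adjusted p = 1). The tip cell gene Esm1 had 1.54 ± 0.62 (adjusted p = 1), the Tie2 ligand gene Angpt1 1.18 ± 0.50 (adjusted p = 1) and the apelin receptor gene Aplnr 1.01 ± 0.43 (adjusted p = 1).

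At 15 mm, 42 of 45 members had a higher value in HDB skin, with a median of 0.40, beside 50.3% of all genes and a median of 0.0041. Again 0 members were called by edgeR, where 2.93% of all genes were. Only 5 had an unadjusted p under 0.05, beside 23.2% of all genes, and DESeq2 called 0, beside 12.4%. A fit with a replicate block also called 0 members, with 41 higher and a median of 0.38. In that fit 7 members had an unadjusted p under 0.05, beside 21.7% of all genes. Its block was 1 effect per replicate number shared by all 5 groups, so it did not pair the 15 mm samples alone. Every HDB sample lay above every acellular sample in 3 members (Egfl7, Cldn5 and Vegfb), beside 8.55% of all genes, and below in 0, beside 11.7%. Egfl7 gave 0.83 ± 0.30 (adjusted p = 0.131), the tight junction gene Cldn5 1.00 ± 0.41 (adjusted p = 0.175) and Vegfb 0.55 ± 0.26 (adjusted p = 0.224). One library carried the direction at this size: without HDB 15 mm replicate 2, 25 members were higher and 20 lower, with a median of 0.068 and 0 at an unadjusted p under 0.05, beside 18% of all genes. The same library had the highest sum of the 12 wounds for the markers of macrophages (342 CPM), adipocytes (1552), erythrocytes (1047) and platelets (21.9 CPM), and the second lowest for keratinocytes (8005 CPM). The part of these cells was not tested. Without that library Esm1, Angpt1 and Aplnr turned from 0.39, 0.51 and 0.40 to -0.53, -0.18 and -0.20. Without acellular 15 mm replicate 1 the median was 0.24, 35 members were higher and again 0 had an unadjusted p under 0.05, beside 18.3%. Of the 12 wounds, acellular 15 mm replicate 1 had the highest hair shaft sum (7056 CPM) and the lowest keratinocyte sum (7923 CPM). Their part was not tested. Without acellular 15 mm replicate 3 the median was 0.66, as it was 0.67 without HDB 15 mm replicate 3, and 13 and 9 members had an unadjusted p under 0.05, beside 34.4% and 16.4% of all genes. In the former fit Cldn5, Sox18, Vcam1 and Ecscr were called.

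Over both sizes, 43 of 45 members had a higher value, with a median of 0.53, beside 48.8% of all genes and a median of -0.0081. The edgeR test called 0 members and 0% of all genes. An unadjusted p under 0.05 was found in 18 members, beside 15.8% of all genes, and DESeq2 called 0, beside 1.39%. Leaving out single samples moved the count of 18 from 5, without HDB 15 mm replicate 2 (11.2% of all genes) or HDB 10 mm replicate 3 (12.5%), to 30, without acellular 10 mm replicate 2 (18.1%) or HDB 15 mm replicate 3 (12.6%). The median was 0.30 without HDB 15 mm replicate 2, with 43 members higher. The smallest p values were those of Tal1 (0.80 ± 0.26, adjusted p = 0.261), Angpt2 (0.77 ± 0.26, adjusted p = 0.261) and Egfl7 (0.62 ± 0.21, adjusted p = 0.261). Vcam1 had 0.81 ± 0.30, adjusted p = 0.269 and Pecam1 0.54 ± 0.27, adjusted p = 0.341. Only Efnb2 (-0.30 ± 0.12, adjusted p = 0.284) and Sox7 (-0.032 ± 0.16, adjusted p = 0.931) had negative values, and that of Sox7 changed sign in 4 of the fits that left out 1 sample. By role, the median was 0.53 for the identity genes, 0.48 for VEGF and apelin, 0.59 for angiopoietins and Tie receptors, 0.52 for transcription factors, 0.46 for arterial and venous genes and 0.80 for adhesion genes. Of the 62 tested genes of the other vascular lists, 47 had a positive value, 0 were called by edgeR, 13 had an unadjusted p under 0.05 and DESeq2 called 0.

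Markers of several other cell types also had higher values in HDB skin over both sizes. All 6 fibroblast markers had a positive value, with a median of 1.06, an unadjusted p under 0.05 in 6 and an adjusted call in 0 by edgeR and 1 by DESeq2. All 6 macrophage markers (median 0.65), all 6 lymphatic markers (0.55), all 5 adipocyte markers (0.86) and all 6 skeletal muscle markers (0.50) were positive with 0 called by edgeR and by DESeq2, and with an unadjusted p under 0.05 in 1, 0, 1 and 0 of them. The skeletal muscle values differed by size, with 1 of 6 higher at 10 mm (median -0.076) and 6 of 6 at 15 mm (1.196). Of the pericyte and smooth muscle markers 9 of 11 were higher (median 0.36), of the erythrocyte markers 3 of 4 (0.36), of the platelet markers 2 of 4 (0.075) and of the keratinocyte markers 3 of 6 (-0.041), with 0 called by edgeR. The fibroblast sum was 3516 to 5433 CPM in acellular 10 mm, 8947 to 11811 in HDB 10 mm, 3416 to 14609 in acellular 15 mm and 8124 to 18316 CPM in HDB 15 mm skin. The hair shaft list went the other way with a median of -5.04 in HDB skin, where an unadjusted p under 0.05 was found in 6 of its 6 tested markers and DESeq2 called 5. The part of these cells in the members' values was not tested.

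The difference of the HDB effect between the sizes was negative in 30 members and positive in 15, with a median of -0.15, beside -0.035 for all genes. The direction rested on single libraries. It was positive in 27 members with a median of 0.11 without acellular 15 mm replicate 3, and in 24 with a median of 0.011 without HDB 15 mm replicate 3. It was negative in 35 with a median of -0.59 without HDB 15 mm replicate 2, where 10 members and 13.8% of all genes had an unadjusted p under 0.05. Without acellular 10 mm replicates 1, 2 and 3 in turn the median was -0.094, -0.54 and -0.00094, without acellular 15 mm replicate 1 -0.39, without HDB 10 mm replicates 2 and 3 -0.43 and -0.075, and without HDB 15 mm replicate 1 -0.092. With all samples it was called in 0 members and in 0% of all genes by edgeR and in 0 members and 4.82% of all genes by DESeq2. At an unadjusted p under 0.05 there was 1 member, beside 13.4% of all genes. It was Sele, with -2.29 ± 0.91 (adjusted p = 0.296). The Sele values behind it were 1.34 ± 0.65 (adjusted p = 1) at 10 mm and -0.95 ± 0.64 (adjusted p = 0.391) at 15 mm.

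The last comparison was of wound size. Across both treatments 41 of 45 members had a higher value in 15 mm than in 10 mm skin, with a median of 0.43, beside 55.7% of all genes and a median of 0.029. Without HDB 15 mm replicate 2 the median was 0.20 with 35 members higher, and without acellular 15 mm replicate 3 it was 0.27 with 36 higher. The edgeR test called 0 members and 0.397% of all genes. An unadjusted p under 0.05 was found in 10 members, beside 15.1% of all genes, a count of 3 to 23 when single samples were left out. DESeq2 called 1 member, beside 5.31% of all genes. It was Sox7, which edgeR also called without acellular 15 mm replicate 3. Sox7 had a lower value in 15 mm skin (-0.60 ± 0.16, adjusted p = 0.105), while Angpt1 had 1.01 ± 0.35, adjusted p = 0.187 and Selp 1.05 ± 0.47, adjusted p = 0.318. Marker sums of other cells also differed with size. In acellular and HDB skin the mean adipocyte sum was 146 and 381 CPM at 10 mm and 719 and 986 CPM at 15 mm, and the mean erythrocyte sum 126 and 114 CPM at 10 mm and 259.99 and 524 CPM at 15 mm. The mean macrophage sum was 103 and 146 CPM at 10 mm and 149 and 250.3 CPM at 15 mm. The mean lymphatic sum was 71.7 and 105 CPM at 10 mm and 111 and 148 CPM at 15 mm, and the mean fibroblast sum 4222 and 10250 CPM at 10 mm and 7280 and 13919 CPM at 15 mm. The hair shaft sum was 159 and 5.87 CPM at 10 mm and 2581 and 108 CPM at 15 mm. These 6 lists had higher means at 15 mm in both treatments. In acellular skin the fibroblast and lymphatic means at 15 mm rested on replicate 3. The fibroblast sums were 3416, 3816 and 14609 CPM at 15 mm, beside 3516, 5433 and 3718 CPM at 10 mm. The lymphatic sums were 57.2, 78.5 and 196.7 CPM at 15 mm, beside 62.5, 115.4 and 37.1 CPM at 10 mm. The mean sums of keratinocytes (14533 and 12455 CPM at 10 mm, 11454 and 12006 CPM at 15 mm), skeletal muscle (11614 and 11465, 5852 and 11931 CPM), pericytes and smooth muscle (1306 and 1469, 1270.2 and 1714 CPM) and platelets (13.5 and 13.1, 13.3 and 19.8 CPM) did not. The part of these cells in the members' values was not tested.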

How the data were processed

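The authors deposited a table of expected counts per gene, estimated from reads, for 15 samples. The submitters' processing notes name HISAT2 2.0.4, Bowtie2 2.2.5, RSEM 1.2.12 and the build GRCm38.p6. Whether strand was used in counting is not given in the sources used here, so a member and a gene that overlaps it on the other strand cannot be told apart. Filters of reads were not re-examined.

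Expected counts were rounded to whole numbers and tested with edgeR 4.0.16 in R 4.3.3 (TMM normalization, filterByExpr, quasi-likelihood fit of 5 group means over all 15 samples). P-values were adjusted by Benjamini-Hochberg over the 15369 genes tested, with a threshold of 0.05. The study's methods name DESeq2, which was run as an alternative (version 1.42.0). Standard errors were taken from the fold change and its F statistic. Log2 CPM used a prior count of 2 in the check of pairing and in the correction for transcript length. The values relative to the core endothelial genes used no prior count. Gene positions are those of RefSeq on GRCm38.p6, and exon overlaps and transcript lengths are those of GENCODE. The pipeline was tested on simulated data.

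Members and lists were chosen with earlier results of these data known. All members could be named. Values in every sample are given for Pecam1, Vcam1, the most abundant member and those with the largest rise and fall in wounds of each role, and the 3 members with the smallest p in each direction for HDB against acellular skin. Of the other vascular genes, up to 3 called in each direction are named. Of the hair shaft markers, Krt85 was not analysed here. The deviations of same-numbered samples from their group means correlated between acellular and HDB 15 mm skin, with r = 0.397, 0.167 and 0.183. The numbers were taken to pair samples in that comparison alone. Between HDB 15 mm and normal skin r was lower but also positive (0.115, 0.136 and 0.0158). The same was so between acellular 10 mm and normal skin (0.00255, 0.151 and 0.0622). The values printed come from the fit without a block, and the blocked fit is given beside the 15 mm comparison. The block was run elsewhere as an alternative only. Alternatives were other normalizations, filters, tools, samples in the fit, a replicate block, a correction for transcript length, a minimum fold change and leaving out each sample.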

Additional observations from a re-analysis of the deposited data

How the results depend on the processing

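Between the 4 wound groups and normal skin, the count of called members was 39 in every setting that did not leave out a sample, except 35 with a minimum absolute log2 fold change of 1, which Angpt2, Cd93, Efnb2 and Sox18 did not reach, and 35 with library totals only, which moved the median of all genes by 0.177 and lost Angpt2, Cd93, Nos3 and Sox18. It ranged from 29 to 40 when single samples were left out. With library totals only the wound value of Esm1 was 0.0136, that of Vcam1 0.11 and that of Ephb4 0.042. Leaving out single samples gave -0.50 to 0.29 for Esm1 and -0.23 to 0.013 for Vcam1. Of 1079 values of single members in this comparison, 1030 kept their direction and their side of the threshold.

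For acellular 10 mm against normal skin, the count was 21 to 40 when single samples were left out. For acellular 15 mm it was 20 with only the groups compared and 19 to 35 when samples were left out. For HDB 10 mm it was 35 with only the groups compared, 13 with the replicate block, 13 with the block and the length correction, and 0 to 30 when samples were left out. For HDB 15 mm it was 17 with DESeq2, 14 with only the groups compared, 0 with the replicate block, 0 with the block and the length correction, and 0 to 15 when samples were left out. The cause was not tested. Between same-numbered samples, r was 0.115, 0.136 and 0.0158 for HDB 15 mm with normal skin. It was 0.0307, 0.0298 and -0.0409 for HDB 10 mm with normal skin. Whether the calls lost with the replicate block reflect weaker effects was not tested.

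For HDB against acellular skin, the count stayed at 0 at 10 mm and over both sizes in every alternative run, and was 0 to 4 at 15 mm when samples were left out. For 15 mm against 10 mm it was 1 with DESeq2 and 0 to 1 when samples were left out. Over both sizes, leaving out samples gave -0.15 to 0.089 for Sox7, -0.041 to 0.24 for Vegfa, -0.071 to 0.62 for Sele and -0.0017 to 0.17 for Ephb4. At 10 mm Vegfb had 0.018 with the length correction, 0.012 with the replicate block added to it, and -0.45 to 0.14 when samples were left out. At 15 mm Esm1 had -0.0368 with the length correction and the replicate block, and -0.53 to 0.85 when samples were left out, where Angpt1 had -0.18 to 0.90 and Aplnr -0.20 to 0.76. Esm1 was the member with the lowest mean level, with samples down to 0.685 CPM, and the part of depth in its changes of sign was not tested.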
